A study of Mus musculus with 12 samples.

Results

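The genes described here are those of glutathione synthesis and use, of the other thiol and oxygen defences, and of metallothionein, in mouse cumulus cells. Members are the symbols of the array annotation that name alpha, kappa, mu, omega, pi and theta glutathione transferases (Gsta, Gstk, Gstm, Gsto, Gstp and Gstt), glutathione peroxidases (Gpx) and peroxiredoxins (Prdx). A further 18 genes were named one by one. The rule gave 49 of the 19938 genes with a single symbol on the array, each read from whichever of its probe sets had the highest mean over the 12 arrays. The member Prdx6-ps2 carries the symbol of a pseudogene. Rows that the annotation gives to several symbols, of which 6 hold symbols of these families, were left out.

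Cumulus cells are the granulosa-derived cells around the oocyte, and they were cultured for 8 h as whole cumulus-oocyte complexes before the oocytes were stripped off. There were 4 arrays in each of 3 groups. The FSH/EGF group received 50 mIU/ml of FSH, 10 ng/ml of EGF and the control medium of 293H cells, the GDF9 group had the oocyte factor GDF9 at 20 ng/ml, and the control group had the 293H control medium at 0.125% by volume. The labels name no 293H control medium for the GDF9 group. Complexes of all groups were taken 44 h after equine chorionic gonadotropin (5 IU), from females of the 129SV strain that were 21 to 26 days old, and were collected in medium with the phosphodiesterase inhibitor cilostamide (1 micromolar). All were cultured with 11 mM glucose and 100 micromolar cysteamine, an aminothiol that helps cells take up cysteine and make glutathione. Each array holds the pooled RNA of 2 cultures, and the spread given below is therefore one between pools.

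Glutathione is a tripeptide made by consecutive enzymes: glutamate-cysteine ligase joins glutamate and cysteine, and glutathione synthetase adds glycine. It serves glutathione peroxidases as the reductant for peroxides and glutathione transferases as the thiol that they couple to reactive compounds. Peroxiredoxins draw instead on thioredoxin, and metallothioneins bind zinc and copper through their cysteines. The transcription factor Nrf2, held down by Keap1, drives many of these genes through the antioxidant response element. In the follicle, cumulus cells are known to supply the oocyte with cysteine and glutathione through gap junctions.

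Array medians lay between 5.41 and 5.53 on the log2 scale of the deposited values, where 1 unit is 2-fold. Arrays of a group correlated at 0.971 to 0.995. Control array 1 stood apart from its group (array weight 0.269, other arrays 0.485 to 2.04). The mean of 21 oocyte markers reached 5.96 on control array 4, against 5.16, 5.01 and 5.03 on control arrays 1 to 3. It was 4.89 to 5.18 on FSH/EGF arrays and 4.86 to 5.04 on GDF9 arrays. The mean of 12 cumulus and granulosa markers lay at 7.71 to 7.91 with FSH/EGF, 9.00 to 9.13 with GDF9 and 8.95 to 9.12 in control, and 9 of the 12 fell with FSH/EGF. Means of endothelial markers were 5.34 to 5.40 with FSH/EGF, 5.04 to 5.24 with GDF9 and 5.06 to 5.27 in control (2 of 12 rose, 1 fell), and those of leukocyte markers 4.84 to 4.89 with FSH/EGF, 4.72 to 4.98 with GDF9 and 4.83 to 5.02 in control (2 of 13 rose). Theca and stroma markers averaged 5.66 to 5.76 with FSH/EGF, 5.69 to 5.90 with GDF9 and 5.79 to 5.97 in control (2 of 12 rose, 3 fell), and both red blood cell markers fell. Of the 21 oocyte markers 2 fell and 0 had a positive difference from control with FSH/EGF (median -0.3). With GDF9 also 0 had a positive difference from control (median -0.29), and 0 were called. Only 2 of the 12 endothelial markers had a positive difference from control with FSH/EGF. Their median difference was -0.05 and the largest 3.18. By the test used below, 21.9% of all genes rose and 14.9% fell with FSH/EGF. Fshr, the FSH receptor gene, stood at 5.26 with FSH/EGF, 8.47 with GDF9 and 8.40 in control. The part of these shifts in the results below was not tested. P-values measure the spread between pools, and 4 arrays a group limit the precision. Levels of different probe sets are not compared. In RNA of whole cell pellets, fewer cells of a type and less RNA per cell cannot be told apart.

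FSH/EGF minus control asked how these genes differ after exposure to the stimuli of cumulus expansion. Of the 49 members, 13 rose and 11 fell in limma's test (adjusted p under 0.05 over all 35399 rows), or 26.5% and 22.4%, against 21.9% and 14.9% of all genes. Called members were 49% of the 49 in either direction, where 36.8% of all genes were called. Changes of at least 2-fold were 6 rises and 2 falls, or 12.2% and 4.08% of members, against 5.14% and 2.23% of all genes. The median member difference was -0.07, the same as that of all genes (-0.07). The largest rises were those of Gsta4, Mt2, Srxn1 and Gss, and the largest falls those of Txnip and Gclm. Arrays of the groups did not overlap for 24 members, or 49% of them, where 41.9% of all genes did not overlap. With array medians set equal, 15 members rose and 6 fell, so that risers made up 71.4% of the called members in place of 54.2%, and among all genes 72.5% in place of 59.4%. Without control array 3, 12 rose and 7 fell. Of all genes 3885 rose and 2327 fell in that setting, against 4357 and 2977 with all arrays.

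**Figure D1:**
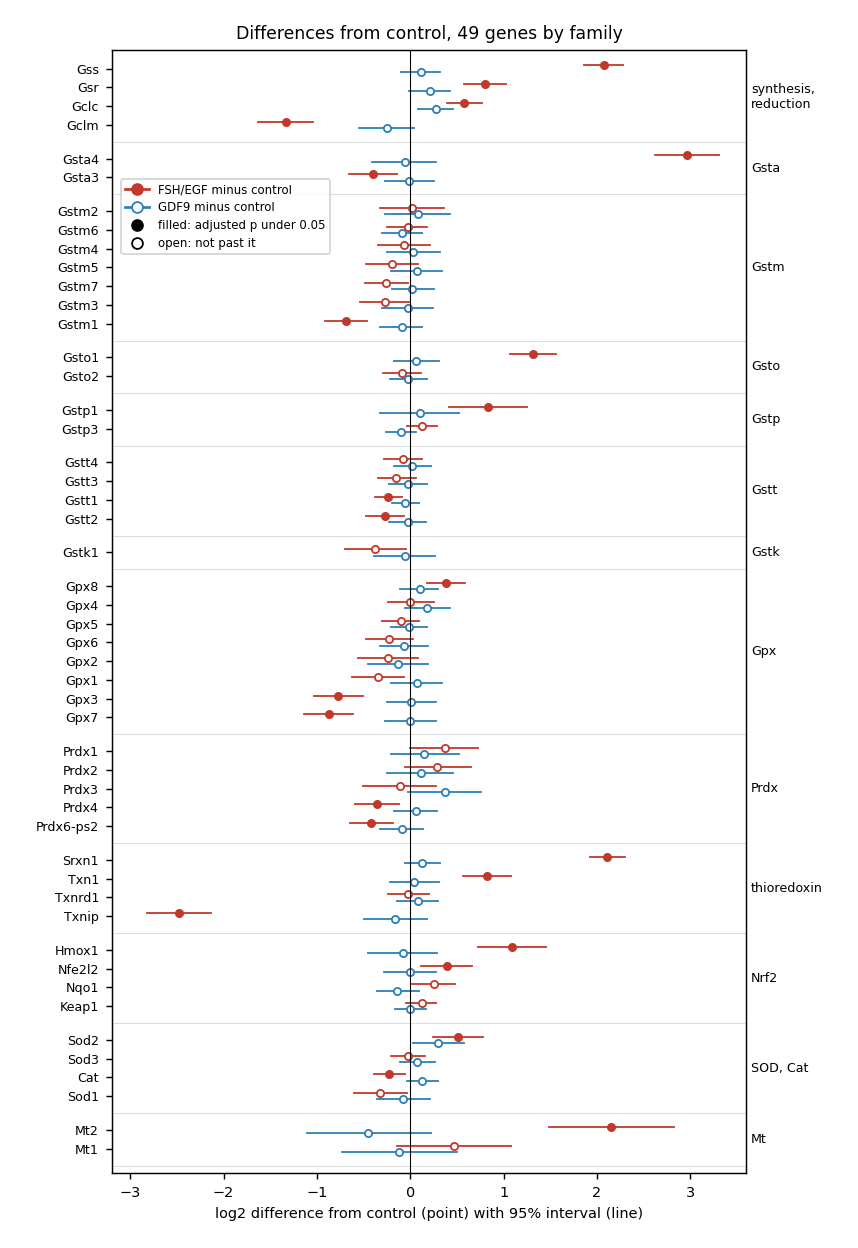
Log2 differences from control with 95% intervals (lines) for the 49 genes, grouped by family, for FSH/EGF (red) and GDF9 (blue); filled points passed an adjusted p of 0.05. The red points spread between -2.48 (Txnip) and 2.96 (Gsta4), while every blue point is open and lies between -0.45 and 0.37.

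All 4 genes of glutathione synthesis and reduction passed the test, with 3 higher and 1 lower (100% called, against 36.8% of all genes). Gss, which encodes glutathione synthetase, had values of 8.30, 8.22, 8.11 and 8.06 on the FSH/EGF arrays, 6.43, 6.27, 6.22 and 5.93 on the GDF9 arrays and 6.09, 6.07, 6.12 and 6.13 on the control arrays. It rose by 2.07 ± 0.10 (log2 difference ± SE, n = 4 and 4; limma adjusted p = 8.95e-09), which is 4.2-fold. The FSH/EGF arrays lay clear above all others. Gclm, the modifier subunit of glutamate-cysteine ligase, had 8.30, 8.11, 8.17 and 7.89 on the FSH/EGF arrays, 9.27, 8.96, 9.05 and 9.52 on the GDF9 arrays and 9.44, 9.65, 9.19 and 9.52 on the control arrays. It fell, with a difference of -1.33 ± 0.14 (0.397 times the control; limma adjusted p = 9.49e-06), and all FSH/EGF arrays lay below the others. Gclc, the catalytic subunit of the same ligase, moved the opposite way, by 0.58 ± 0.09 (limma adjusted p = 0.000289). Its values were 8.78, 8.83, 8.82 and 8.88 on the FSH/EGF arrays, 8.68, 8.56, 8.37 and 8.46 on the GDF9 arrays and 8.10, 8.33, 8.42 and 8.14 on the control arrays, so that the FSH/EGF arrays were again apart. Gsr, which reduces glutathione disulfide with NADPH, rose by 0.80 ± 0.10 to a mean of 8.47 ± 0.125 with FSH/EGF, against 7.68 ± 0.0433 in control (SD, n = 4 each; limma adjusted p = 5.92e-05). The plot of both ligase subunits shows the 4 FSH/EGF arrays at high Gclc and low Gclm, away from the other 8.

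**Figure D2:**
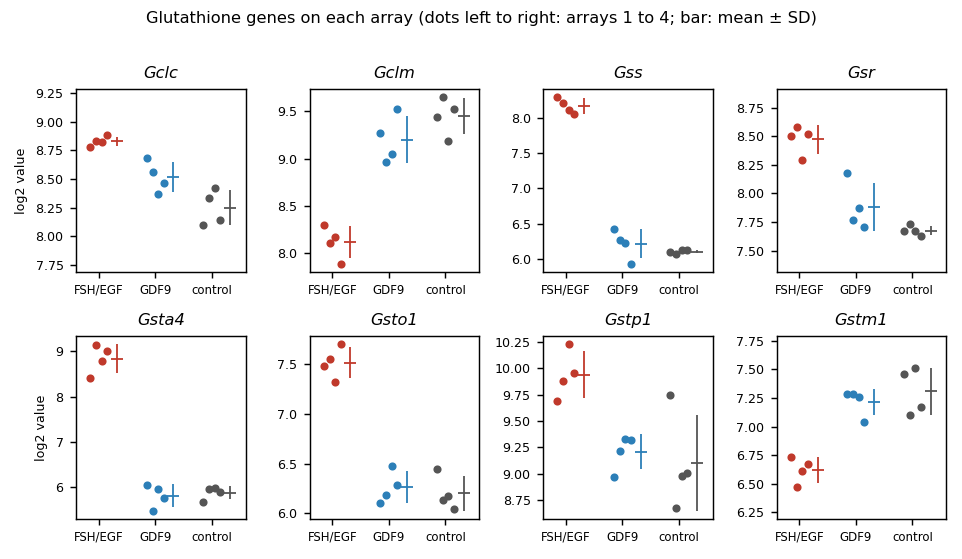
Log2 values of 8 glutathione genes on each array (dots, arrays 1 to 4 of a group left to right) with the group mean and SD (bar). Gss, Gsr, Gclc, Gsta4 and Gsto1 are higher and Gclm and Gstm1 lower on every FSH/EGF array than on every control array, while for Gstp1 control array 1 (9.75) reaches into the FSH/EGF range.

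Genes that feed glutathione synthesis were read from a list of 19 genes, of which 17 were measured. With FSH/EGF 8 rose and 2 fell, so that 58.8% were called, against 36.8% of all genes. Slc7a11, the cystine-importing subunit of the cystine-glutamate exchanger, stood at 7.48 with FSH/EGF, 4.30 with GDF9 and 4.49 in control. It rose by 2.99 ± 0.12 (limma adjusted p = 1.9e-09). Its partner subunit gene Slc3a2 rose by 1.65 ± 0.08, and Abcc1, an exporter of glutathione and its conjugates, by 1.07 ± 0.09. Anpep, a surface aminopeptidase, rose by 0.70 ± 0.09. Cth, which makes cysteine from cystathionine, rose by 0.69 ± 0.24 with overlapping arrays (limma adjusted p = 0.0483). The number past the threshold in this list was 6 of 17 without control array 3, and also 6 without FSH/EGF array 1 or 3. Of all 19938 genes, 4357 rose and 2977 fell with all arrays, and 3885 and 2327 without control array 3. Without FSH/EGF array 1 these counts were 3849 and 2131, and without FSH/EGF array 3 they were 3916 and 2205.

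Among the 18 glutathione transferases 3 rose, 4 fell and 11 did not pass the test. The called share of 38.9% was near the 36.8% of all genes. The riser with the largest change was Gsta4, an alpha-class enzyme known for conjugating the aldehydes that lipid peroxidation leaves. Its values were 8.41, 9.15, 8.79 and 9.01 on the FSH/EGF arrays, 6.04, 5.48, 5.96 and 5.77 on the GDF9 arrays and 5.67, 5.96, 5.98 and 5.89 on the control arrays. The difference was 2.96 ± 0.16 (7.8-fold; limma adjusted p = 2.89e-08), with the lowest FSH/EGF array more than 2 units above the highest array of the other groups. Gsta3, the other alpha gene with a probe set of its own, was lower, at -0.40 ± 0.12 (limma adjusted p = 0.0239). That call was lost without control arrays 1 or 3 or FSH/EGF arrays 3 or 4 (adjusted p = 0.0561 to 0.0705), and without control arrays 1 and 4 together (-0.39, adjusted p = 0.0821).

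In the omega class Gsto1, which reduces mixed disulfides and dehydroascorbate, had 7.48, 7.55, 7.32 and 7.70 on the FSH/EGF arrays, 6.10, 6.19, 6.48 and 6.29 on the GDF9 arrays and 6.45, 6.14, 6.18 and 6.04 on the control arrays. It rose by 1.31 ± 0.11 (limma adjusted p = 2.08e-06), and no FSH/EGF array overlapped with the others. Its direct neighbour in the genome, Gsto2, showed a difference of -0.09 ± 0.09 (95% interval -0.29 to 0.11) in a probe set among the dimmest 40% of rows. Gstp1, of the pi class, had 9.69, 9.88, 10.23 and 9.96 on the FSH/EGF arrays, 8.97, 9.22, 9.33 and 9.32 on the GDF9 arrays and 9.75, 8.68, 8.98 and 9.01 on the control arrays. It rose by 0.83 ± 0.19 (limma adjusted p = 0.0062) although control array 1 was higher than FSH/EGF array 1; without that control array the difference was 1.05. Gstp3, whose probe set is also among the dimmest 40% of rows, differed by 0.13 ± 0.07 (95% interval -0.04 to 0.29).

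The mu, theta and kappa classes held no riser. Gstm1 had 6.73, 6.47, 6.61 and 6.67 on the FSH/EGF arrays, 7.28, 7.28, 7.26 and 7.04 on the GDF9 arrays and 7.46, 7.10, 7.51 and 7.17 on the control arrays. It fell, at -0.69 ± 0.10 (limma adjusted p = 0.000294), and its FSH/EGF arrays lay below all others. The 7 mu genes stand side by side in the genome, and the other 6 ranged between -0.27 (Gstm3) and 0.02 (Gstm2) without passing the test. The probe set of Gstm6 is among the dimmest 40% of rows. Gstm3 passed without control array 2 (-0.38, adjusted p = 0.0233). Of the 4 theta genes, which also neighbour each other, Gstt1 and Gstt2 were lower by the test. The probe sets of Gstt1 and Gstt4 are among the dimmest 40% of rows. Gstt2 had 5.68, 5.57, 5.70 and 5.55 on the FSH/EGF arrays, 5.69, 5.93, 6.0 and 5.85 on the GDF9 arrays and 5.93, 5.86, 6.09 and 5.71 on the control arrays, a difference of -0.27 ± 0.09 (limma adjusted p = 0.0459). Its call was lost without any one of control arrays 1, 2 and 3, GDF9 arrays 2 and 4 or FSH/EGF arrays 1 to 4 (adjusted p = 0.0507 to 0.132). Gstt1 was at -0.24 ± 0.07 (limma adjusted p = 0.0186), and this call was lost without control array 3 or FSH/EGF array 2 (adjusted p = 0.053 to 0.054). Gstk1, the kappa enzyme of mitochondria and peroxisomes, had 5.53, 5.55, 5.43 and 5.27 on the FSH/EGF arrays, 6.09, 5.84, 5.43 and 5.68 on the GDF9 arrays and 5.70, 6.07, 5.52 and 5.99 on the control arrays. Its difference of -0.38 ± 0.15 did not pass (limma adjusted p = 0.0768). It passed without control array 3 (-0.47, adjusted p = 0.0374), with array weights (adjusted p = 0.0442) and over rows with 1 symbol alone (adjusted p = 0.0449).

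Other enzymes that use glutathione or share the transferase fold formed a list of 16 genes, all measured, of which 5 rose and 5 fell (31.2% each way, against 21.9% and 14.9% of all genes). The number called was 7 in several settings, among them without control array 2 or FSH/EGF array 3 or 4. Clic1, a chloride channel protein with the transferase fold, rose by 2.92 ± 0.09 (limma adjusted p = 2.82e-10). Esd, which hydrolyses formylglutathione, rose by 1.97 ± 0.17. The microsomal transferase gene Mgst1 rose by 1.15 ± 0.11 and the glyoxalase gene Hagh by 0.97 ± 0.16. Gstz1, the zeta transferase of tyrosine breakdown, fell, at -1.25 ± 0.13.

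Of the 8 glutathione peroxidases, 1 rose and 2 fell, a called share of 37.5%, near that of all genes (36.8%). Gpx7, a peroxidase of the endoplasmic reticulum that has cysteine in place of selenocysteine, had 7.99, 7.76, 7.85 and 7.75 on the FSH/EGF arrays, 8.77, 8.74, 8.66 and 8.67 on the GDF9 arrays and 9.14, 8.66, 8.52 and 8.52 on the control arrays. It fell, at -0.87 ± 0.12 (limma adjusted p = 0.000154), with all FSH/EGF arrays below all others, and the difference was -0.73 without control array 1. Gpx3, the secreted selenoenzyme, was at -0.77 ± 0.12 (limma adjusted p = 0.00034), with means of 5.94 ± 0.0979 with FSH/EGF, 6.71 ± 0.241 with GDF9 and 6.71 ± 0.163 in control (SD, n = 4 each). Gpx8, the other peroxidase of the endoplasmic reticulum, rose by 0.38 ± 0.09 (limma adjusted p = 0.00879), a call lost after renewed quantile normalization (0.22, adjusted p = 0.0665). Gpx4, which reduces lipid hydroperoxides in membranes, showed 0.00 ± 0.11 (95% interval -0.24 to 0.25), and its second probe set -0.05 ± 0.11. Gpx1, the cytosolic enzyme, was at -0.35 ± 0.13 (limma adjusted p = 0.0563). It was past the threshold without control array 2, GDF9 array 2 or FSH/EGF array 1 (adjusted p = 0.0304 to 0.0451), after renewed quantile normalization (-0.57, adjusted p = 0.00534), without the dimmest 40% of rows (adjusted p = 0.0428) and over rows with 1 symbol alone (adjusted p = 0.0325). Gpx2, Gpx5 and Gpx6 differed by -0.24, -0.10 and -0.23 and did not pass, with Gpx5 and Gpx6 among the dimmest 40% of rows. Gpx2 passed without GDF9 array 2 (-0.24, adjusted p = 0.0319), and Gpx6 when the 8 arrays of the compared groups were fitted alone (-0.23, adjusted p = 0.0226).

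Selenoproteins beyond this family and the factors that make them were read from a list of 17 measured genes, with 8 risers and 4 fallers (70.6% called, against 36.8% of all genes). The number called was 8 without FSH/EGF array 1. Sephs2, which makes the selenium donor for selenocysteine, rose by 1.36 ± 0.12 (limma adjusted p = 3.66e-06). Selenos and Selenot, proteins of the endoplasmic reticulum, rose by 1.16 ± 0.12 and 0.77 ± 0.08. Selenop, the secreted selenium carrier, fell, at -0.79 ± 0.10, and Selenoh also, at -0.73 ± 0.13.

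The peroxiredoxins, which reduce peroxides through a cysteine of their own, held 2 fallers and no riser among 5 symbols. Their called share of 40% was near that of all genes (36.8%). Prdx6-ps2 had 6.0, 5.75, 6.04 and 5.82 on the FSH/EGF arrays, 6.29, 5.98, 6.47 and 6.19 on the GDF9 arrays and 6.27, 6.22, 6.41 and 6.39 on the control arrays. It was at -0.42 ± 0.11 (limma adjusted p = 0.0101), with every FSH/EGF array below every control array, while FSH/EGF arrays 1 and 3 lay above GDF9 array 2. The call was lost without control arrays 1 and 4 together (-0.41, adjusted p = 0.0526). Whether its signal comes from the pseudogene or from a related transcript was not tested. Prdx4, the peroxiredoxin of the endoplasmic reticulum, was at -0.36 ± 0.11 (limma adjusted p = 0.0279), a call lost without control array 2, 3 or 4 (adjusted p = 0.0606 to 0.0621) and without control arrays 1 and 4 together (-0.38, adjusted p = 0.0707). Prdx1 and Prdx2, of the cytosol, were at 0.37 ± 0.17 and 0.29 ± 0.16 and Prdx3, of mitochondria, at -0.11 ± 0.18, none past the test. FSH/EGF array 4 was low for Prdx3 (7.58, other FSH/EGF arrays 8.39 to 8.46) and for Prdx4 (7.64, others 8.09 to 8.17). Over the other settings the difference ranged between -0.33 and 0.10 for Prdx3 and between -0.58 and -0.23 for Prdx4. The second probe set of Prdx1 showed 0.49 ± 0.14 (limma adjusted p = 0.0175), so that its 2 probe sets fell on different sides of the threshold.

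Srxn1 encodes sulfiredoxin, which restores peroxiredoxins that have been oxidised too far. Its values were 8.22, 8.39, 8.43 and 8.25 on the FSH/EGF arrays, 6.44, 6.48, 6.28 and 6.15 on the GDF9 arrays and 6.30, 6.16, 6.28 and 6.12 on the control arrays. It rose by 2.11 ± 0.09 (4.32-fold; limma adjusted p = 3.03e-09), with a wide gap between the FSH/EGF arrays and the other 8. Txn1, thioredoxin itself, rose by 0.82 ± 0.12 to a mean of 9.70 ± 0.102 with FSH/EGF, against 8.88 ± 0.16 in control (SD, n = 4 each; limma adjusted p = 0.000228). Txnrd1, the cytosolic reductase that keeps thioredoxin reduced, had 7.86, 7.76, 7.83 and 7.68 on the FSH/EGF arrays, 8.18, 7.80, 7.73 and 7.82 on the GDF9 arrays and 7.65, 7.81, 7.88 and 7.88 on the control arrays. The groups overlapped, and its difference was -0.02 ± 0.10 (95% interval -0.24 to 0.20; limma adjusted p = 0.894). After renewed quantile normalization it passed (-0.24, adjusted p = 0.0494). Txnip, which binds thioredoxin and restrains glucose uptake, had 8.06, 8.40, 8.19 and 7.68 on the FSH/EGF arrays, 10.52, 10.23, 10.22 and 10.64 on the GDF9 arrays and 10.38, 10.59, 10.43 and 10.84 on the control arrays. It fell, at -2.48 ± 0.16 (limma adjusted p = 1.34e-07), to 0.179 times the control, and the highest FSH/EGF array (8.40) lay below the lowest of the other arrays (10.22).

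**Figure D3:**
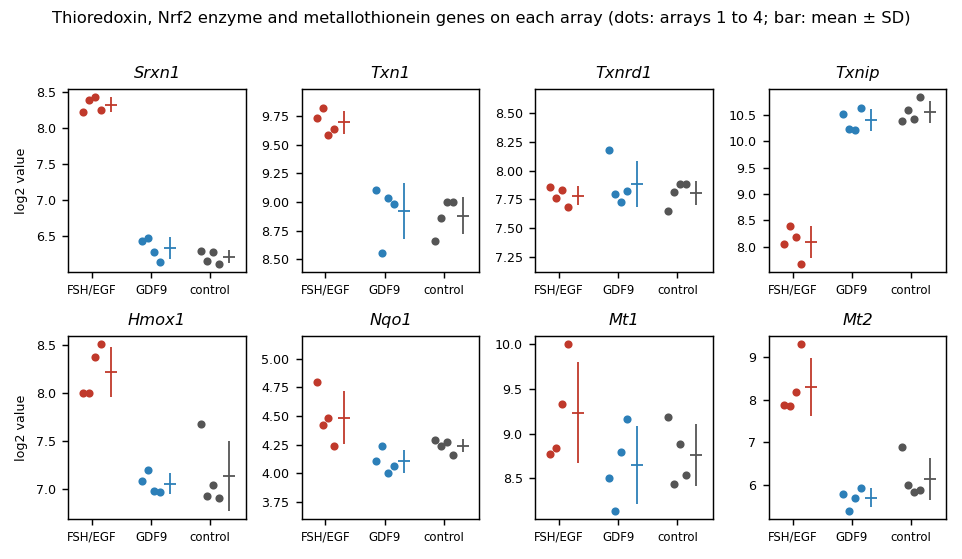
Log2 values of 8 genes of the thioredoxin system, of Nrf2-driven enzymes and of metallothionein on each array (dots, arrays 1 to 4 of a group left to right) with the group mean and SD (bar). Srxn1, Txn1, Hmox1 and Mt2 are higher and Txnip lower on every FSH/EGF array than on every control array, whereas Txnrd1 and Mt1 overlap, and so does Nqo1 on FSH/EGF array 4.

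Related thiol genes were read from a list of 20, all measured, with 6 risers and 5 fallers (55% called, against 36.8% of all genes). The number called was 8 of 20 without FSH/EGF array 1, where 3849 of all 19938 genes rose and 2131 fell. It was also 8 without control arrays 1 and 4 together, where 3872 of all genes rose and 2267 fell. With all arrays, 4357 of all genes rose and 2977 fell. Arrdc4, an arrestin-domain relative of Txnip, stood at 8.13 with FSH/EGF, 5.99 with GDF9 and 5.90 in control. It rose by 2.24 ± 0.15 (limma adjusted p = 2.16e-07), the opposite direction to Txnip. Glrx, glutaredoxin, rose by 0.83 ± 0.09 and Msrb1, a methionine sulfoxide reductase, by 0.55 ± 0.09. Park7, a protein that responds to oxidation, fell, at -0.67 ± 0.14, and so did the mitochondrial reductase gene Txnrd2, at -0.51 ± 0.08.

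Nrf2 itself, encoded by Nfe2l2, had 8.27, 8.40, 8.45 and 8.69 on the FSH/EGF arrays, 8.10, 7.79, 8.03 and 8.33 on the GDF9 arrays and 8.29, 8.01, 7.95 and 8.02 on the control arrays. The difference of 0.39 ± 0.12 passed narrowly (limma adjusted p = 0.035), with control array 1 (8.29) above FSH/EGF array 1 (8.27). The call was lost without control array 2, 3 or 4 or FSH/EGF array 2, 3 or 4 (adjusted p = 0.0572 to 0.101), and after renewed quantile normalization (0.17, adjusted p = 0.359). Keap1, its inhibitor, had 7.57, 7.59, 7.36 and 7.46 on the FSH/EGF arrays, 7.48, 7.38, 7.24 and 7.45 on the GDF9 arrays and 7.32, 7.43, 7.37 and 7.42 on the control arrays. These overlapped, with a difference of 0.12 ± 0.08 (95% interval -0.05 to 0.28).

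Hmox1, the heme-degrading enzyme that is a classical Nrf2 target, had 8.00, 8.00, 8.37 and 8.51 on the FSH/EGF arrays, 7.08, 7.19, 6.97 and 6.96 on the GDF9 arrays and 7.67, 6.92, 7.04 and 6.90 on the control arrays. It rose by 1.09 ± 0.17 (2.12-fold; limma adjusted p = 0.000367). Control array 1 was the highest array outside the FSH/EGF group, and without it the rise was 1.27. Nqo1, a quinone reductase widely used as an Nrf2 marker, had 4.80, 4.42, 4.48 and 4.24 on the FSH/EGF arrays, 4.11, 4.24, 4.0 and 4.06 on the GDF9 arrays and 4.29, 4.24, 4.27 and 4.16 on the control arrays. Its probe set is among the dimmest 40% of rows, and the difference of 0.25 ± 0.11 did not pass (limma adjusted p = 0.0977). It passed without FSH/EGF array 4 (0.33, adjusted p = 0.0314), with array medians set equal (0.33, adjusted p = 0.0383), after renewed quantile normalization (adjusted p = 0.045) and with array weights (adjusted p = 0.0486).

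Of 21 further Nrf2 target genes that were measured, 8 rose and 3 fell. Risers were 38.1% of the list, against 21.9% of all genes, and the share of fallers was near the 14.9% of all genes. Akr1b8, an aldo-keto reductase, rose by 5.26 ± 0.13, the largest difference among the genes of the lists given here (limma adjusted p = 3.83e-11). Ugdh, which makes UDP-glucuronate, rose by 2.76 ± 0.14, the ferritin heavy chain gene Fth1 by 1.42 ± 0.12, and the pentose phosphate enzyme gene Taldo1 by 1.34 ± 0.13. Pir fell, at -1.40 ± 0.12. Among 15 partners and regulators of Nrf2, 10 rose and 1 fell (66.7% and 6.67%), and 8 in all were called after renewed quantile normalization. Sqstm1, a cargo receptor that binds Keap1, rose by 0.77 ± 0.08, Atf4 by 0.77 ± 0.11, Bach1, a repressor at the same DNA element, by 0.74 ± 0.15 and Dpp3, a Keap1-binding peptidase, by 0.69 ± 0.09. Bach2 fell, at -0.91 ± 0.12 (limma adjusted p = 8.45e-05).

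The promoters of Srxn1 and Gclm are shown because these genes are both known Nrf2 targets in other cells and moved in opposite directions here. The windows reach 250 bases before to 50 after the start of the gene (RefSeq, GRCm38.p6, 5′ to 3′). Capitals mark a form of the core of the antioxidant response element, TGACNNNGC, searched on both strands. Other forms of the core were not searched and stay in lower case.
Srxn1 (chr2:152105274-152105573, plus strand): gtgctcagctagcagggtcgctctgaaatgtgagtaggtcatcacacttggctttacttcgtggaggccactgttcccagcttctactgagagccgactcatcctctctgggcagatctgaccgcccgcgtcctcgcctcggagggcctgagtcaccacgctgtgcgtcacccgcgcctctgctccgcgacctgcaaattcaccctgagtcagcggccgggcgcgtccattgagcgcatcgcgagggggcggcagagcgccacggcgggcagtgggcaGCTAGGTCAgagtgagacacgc
Gclm (chr3:122245307-122245606, plus strand): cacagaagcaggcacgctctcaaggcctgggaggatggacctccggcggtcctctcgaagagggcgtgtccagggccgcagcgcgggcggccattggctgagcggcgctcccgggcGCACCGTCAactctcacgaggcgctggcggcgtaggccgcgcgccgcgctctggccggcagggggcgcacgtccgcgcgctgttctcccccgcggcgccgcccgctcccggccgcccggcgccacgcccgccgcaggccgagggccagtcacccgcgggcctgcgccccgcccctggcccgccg
Each window holds 1 match, on the opposite strand in both. The match lies at bases 279 to 287 of the Srxn1 window and at bases 117 to 125 of the Gclm window, where it overlaps by 3 bases with a match to the metal motif TGCGCNC. Of the 42 members with a promoter in the table, 10 held TGACNNNGC (23.8%), against 12.4% of all 32851 promoters. They were Gclm, Gsta3, Gstm5, Gstm7, Mt2, Nfe2l2, Prdx1, Sod1, Srxn1 and Txnrd1. By the test, 3 of these 10 rose with FSH/EGF (Srxn1, Mt2 and Nfe2l2), 2 fell (Gclm and Gsta3) and 5 did not pass. Of all 49 members 26.5% rose and 22.4% fell, and of all genes 21.9% and 14.9%. Gclc, Gsr, Gsta4, Gstt2, Hmox1, Prdx6-ps2 and Sod3 were not among the promoters used here. All of these but Sod3 were called, with Gclc, Gsr, Gsta4 and Hmox1 higher and Gstt2 and Prdx6-ps2 lower. The shares of all 49 members are therefore not those of the 42 that were searched.

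Superoxide dismutases and catalase shifted by less than 1 unit. Sod2, the mitochondrial manganese enzyme, had 8.16, 8.12, 8.18 and 8.24 on the FSH/EGF arrays, 8.20, 7.80, 7.83 and 8.03 on the GDF9 arrays and 7.37, 7.98, 7.55 and 7.74 on the control arrays. It rose by 0.51 ± 0.13 (limma adjusted p = 0.00841), with all FSH/EGF arrays above the controls, while GDF9 array 1 was higher than FSH/EGF arrays 1 to 3. The call was lost without control arrays 1 and 4 together (0.41, adjusted p = 0.0551) and after renewed quantile normalization (0.29, adjusted p = 0.0587). Sod1, the cytosolic copper and zinc enzyme, had 11.29, 11.21, 11.01 and 11.13 on the FSH/EGF arrays, 11.67, 11.36, 11.29 and 11.29 on the GDF9 arrays and 11.15, 11.76, 11.42 and 11.58 on the control arrays. The difference of -0.32 ± 0.13 did not pass (limma adjusted p = 0.0863), though it did without control array 1 (-0.43, adjusted p = 0.0161), without control arrays 1 and 4 (adjusted p = 0.043) and with array weights (adjusted p = 0.00848). Cat, the peroxisomal catalase gene, had 7.65, 7.82, 7.74 and 7.75 on the FSH/EGF arrays, 8.07, 8.00, 8.17 and 8.12 on the GDF9 arrays and 8.15, 7.86, 7.97 and 7.88 on the control arrays. Every FSH/EGF array lay below every control array, but the difference was small, at -0.23 ± 0.08 (limma adjusted p = 0.0467). The call was lost without control array 1 or 3, GDF9 array 1, 3 or 4, or any FSH/EGF array (adjusted p = 0.0523 to 0.128), and without control arrays 1 and 4 together (-0.17, adjusted p = 0.16). Sod3, the secreted enzyme, was at -0.03 ± 0.09 (95% interval -0.21 to 0.16) in a probe set among the dimmest 40% of rows.

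Enzymes that give rise to superoxide and peroxide were read from a list of 17 genes, of which 16 were measured, with 3 risers and 3 fallers. The called share of 37.5% was near that of all genes (36.8%). Duox2, a dual oxidase, fell, at -1.15 ± 0.14 (limma adjusted p = 4.32e-05), and the oxidase gene Nox4 was lower, at -0.29 ± 0.06. Ero1b and Ero1a, thiol oxidases of the endoplasmic reticulum, rose by 0.83 ± 0.10 and 0.65 ± 0.14, and Rac1 by 0.44 ± 0.06.

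The metallothionein genes Mt2 and Mt1 are direct neighbours in the genome. Mt2 had 7.88, 7.86, 8.18 and 9.30 on the FSH/EGF arrays, 5.80, 5.40, 5.70 and 5.93 on the GDF9 arrays and 6.88, 6.01, 5.84 and 5.88 on the control arrays. It rose by 2.15 ± 0.31 (4.45-fold; limma adjusted p = 0.000177), and all FSH/EGF arrays lay above all others, with array 4 highest. Without FSH/EGF array 4 the rise was 1.82, and without control array 1 it was 2.40. Mt1 had 8.77, 8.84, 9.33 and 10.00 on the FSH/EGF arrays, 8.51, 8.14, 8.79 and 9.16 on the GDF9 arrays and 9.19, 8.44, 8.88 and 8.54 on the control arrays. Its groups overlapped, and the difference of 0.47 ± 0.28 did not pass (95% interval -0.14 to 1.08; limma adjusted p = 0.229). In the plot of Mt2 against Mt1, FSH/EGF array 4 is highest and control array 1 the highest control for both genes. Mt2 had the widest spread of any member in the FSH/EGF and control groups, with an SD of 0.679 with FSH/EGF and 0.49 in control, where the median member had 0.124 and 0.153.

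**Figure D4:**
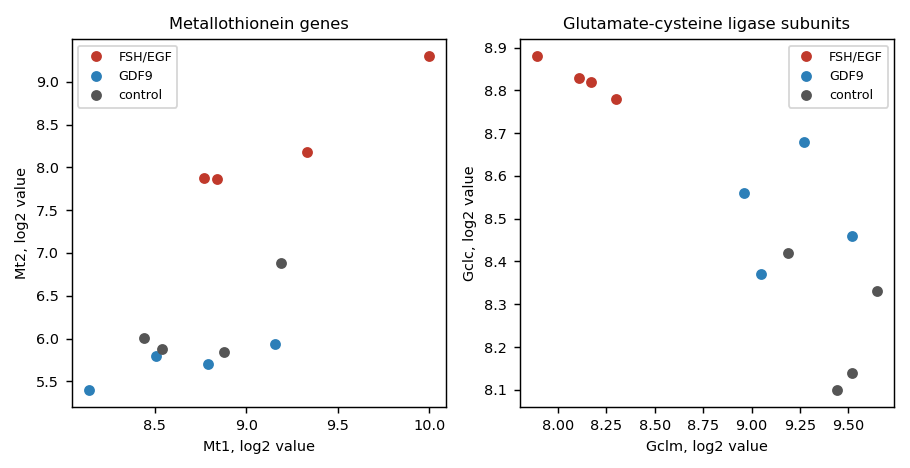
Log2 values of Mt2 against Mt1 (left) and of Gclc against Gclm (right), 1 point per array, coloured by group. At left every FSH/EGF array has a Mt2 value of 7.86 or more and every other array 6.88 or less; at right, the FSH/EGF arrays reach at most 8.30 in Gclm and the others at least 8.96.

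Their promoters are shown because the gene pair is known to respond to metals through short metal response elements. Windows and source are as for Srxn1, and capitals mark the element's core, TGCACNC or TGCGCNC, on either strand.
Mt2 (chr8:94172368-94172667, plus strand): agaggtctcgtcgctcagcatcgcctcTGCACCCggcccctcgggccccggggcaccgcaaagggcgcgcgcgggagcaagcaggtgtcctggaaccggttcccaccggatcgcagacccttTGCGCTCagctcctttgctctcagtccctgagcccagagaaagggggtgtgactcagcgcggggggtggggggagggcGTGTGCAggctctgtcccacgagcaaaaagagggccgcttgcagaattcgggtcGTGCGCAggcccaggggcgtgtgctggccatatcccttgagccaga
Mt1 (chr8:94178839-94179138, plus strand): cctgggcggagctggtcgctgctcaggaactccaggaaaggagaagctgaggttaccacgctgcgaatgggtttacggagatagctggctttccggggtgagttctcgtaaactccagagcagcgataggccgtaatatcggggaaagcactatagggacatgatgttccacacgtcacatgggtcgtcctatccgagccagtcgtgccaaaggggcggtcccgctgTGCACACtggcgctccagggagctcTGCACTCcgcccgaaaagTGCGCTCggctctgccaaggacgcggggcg
The Mt2 window held 4 matches and the Mt1 window 3, none of which overlap each other. At least 3 matches were found in 1.97% of all promoters and at least 4 in 0.517%. The Mt2 window also held 1 match to TGACNNNGC, not capitalised, at bases 172 to 180, and the Mt1 window had no match to it. Bases outside the windows were not searched, so these counts depend on the annotated start and hold for the windows alone. One or more of the metal motifs stood in 13 of the 42 member genes with a promoter (31%), against 25.7% of all promoters.

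Genes of metal response and of zinc and iron handling formed a list of 19, all measured, with 9 risers and no faller (47.4% and 0%, against 21.9% and 14.9% of all genes). Hif1a, which also responds to iron and oxygen, rose by 2.34 ± 0.09 (limma adjusted p = 1.55e-09), and Tfrc, the transferrin receptor gene, by 1.62 ± 0.14. The zinc importer genes Slc39a10 and Slc39a1 rose by 1.07 ± 0.19 and 0.80 ± 0.10, and Aco1, the iron regulatory protein, by 0.78 ± 0.09. Mtf1, the transcription factor that binds the metal response element, rose by 0.47 ± 0.09 (limma adjusted p = 0.00141); it was named after its value was seen.

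GDF9 minus control asked whether GDF9 added to whole complexes shifted these genes. Oocytes were present during culture in all groups, and the part of their own factors was not tested. No member passed limma's test (smallest adjusted p = 0.971), as for all genes (0% called), and 2 of the 49 had an unadjusted p under 0.05. Over all rows 0 passed and 1590 had an unadjusted p under 0.05. In none of 23 other settings did a member pass. The smallest p belonged to Gclc, at 0.27 ± 0.09 (95% interval 0.08 to 0.46), followed by Sod2 at 0.30 ± 0.13 and Gsr at 0.21 ± 0.10. These 3 overlapped with the controls. Prdx3 was the single member whose arrays did not overlap (2.04% of members, 2.32% of all genes). Its values were 8.98, 8.53, 8.69 and 8.62 with GDF9 and 8.13, 8.37, 8.51 and 8.34 in control, a difference of 0.37 ± 0.18 (95% interval -0.03 to 0.76). For 48 members the 95% interval lay within 2-fold in either direction. The exception was Mt2, at -0.45 ± 0.31 (95% interval -1.11 to 0.22).

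FSH/EGF minus GDF9 uses the same FSH/EGF arrays as the comparison with control. It gave 14 risers and 10 fallers among the members, or 28.6% and 20.4%, against 18.6% and 10.5% of all genes (29.1% in either direction). Changes of at least 2-fold were 6 rises and 2 falls, or 12.2% and 4.08% of members, against 4.33% and 2.24% of all genes, and arrays did not overlap for 21 members (42.9%, against 33.7% of all genes). Gsta4 was higher by 3.03 ± 0.16, Mt2 by 2.6 ± 0.31, Srxn1 by 1.98 ± 0.09 and Gss by 1.96 ± 0.10, and Txnip was at -2.32 ± 0.16 and Gclm at -1.08 ± 0.14. Gclc was higher by 0.31 ± 0.09 (limma adjusted p = 0.0227), a call lost without GDF9 array 3 or 4 or FSH/EGF array 2, 3 or 4 (adjusted p = 0.0506 to 0.0747) and after renewed quantile normalization (adjusted p = 0.315). Nqo1 was at 0.38 ± 0.11 here (limma adjusted p = 0.0189; 0.0588 without GDF9 array 3), against 0.25 ± 0.11 over control. Sod2 was at 0.21 ± 0.13 (limma adjusted p = 0.289), against 0.51 ± 0.13 over control. Counts fell to 9 risers and 6 fallers without GDF9 array 3, and to 9 risers and 8 fallers without FSH/EGF array 3. Among all genes there were 3711 risers and 2093 fallers with all arrays. Those counts were 3206 and 1802 without GDF9 array 3, and 3275 and 1721 without FSH/EGF array 3. After renewed quantile normalization the members gave 10 risers and 11 fallers, or 47.6% risers in place of 58.3%. Risers among all called genes were 56.3% in place of 63.9%.

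**Figure D5:**
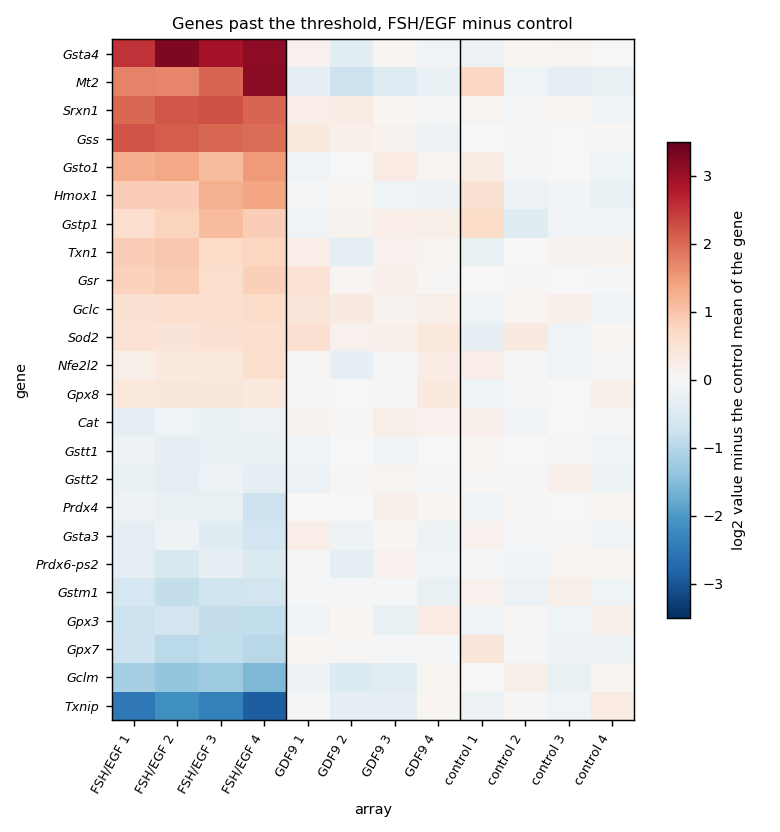
Heat map of the 24 genes past the threshold in FSH/EGF minus control: each cell is the log2 value on 1 array minus the gene's mean over the control arrays (red higher, blue lower). The deepest colours are those of Gsta4, Mt2, Srxn1 and Gss (red) and of Txnip (blue) on the FSH/EGF arrays, and control array 1 is reddest among the controls for Mt2, Gstp1 and Hmox1.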

How the data were processed

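Mouse cumulus cell RNA was measured on 12 arrays, 4 in each of 3 groups taken from the labels. The authors deposited normalized log2 values per probe set. The submitters' processing notes name RMA, Partek and GCOS, with no role or version, and the normalization steps, annotation release and genome build have no statement in the labels or headers (not given in the sources used here). All 35399 rows were fitted with limma 3.58.1 in R 4.3.3, with 1 mean per group over 12 arrays, eBayes and Benjamini-Hochberg adjustment over all rows (threshold 0.05). Probe sets were named from the platform annotation: 21789 rows had 1 symbol, 1621 several and 11989 were not listed. In simulated data for FSH/EGF minus control on 35399 rows, the fit recovered 52.24% of log2 changes of 0.5, 88.06% of 1 and 100% of 2. The simulation changed 67, 67 and 66 genes by these sizes, while 10269 rows were called in the data. With so few changed rows the adjustment was stricter, so these shares do not give the recovery in the real comparison.

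Members and lists were chosen with earlier results of these data known. Genes given array by array were called members with a log2 difference of at least 1 over control, the member with the largest difference of each family and a fixed set of central genes, and the 5 largest called changes of each further list were named. Alternatives were another variance model, array weights, a filter on dim rows, renewed quantile normalization, equal array medians, a replicate block, rows with 1 symbol, means over probe sets, the compared groups alone, and leaving out arrays. Values of the other probe sets of 4 genes were added after seeing the data. Replicate numbers were checked as pairs: deviations of same-numbered arrays correlated at -0.389 to 0.221 and those of different numbers at -0.346 to 0.389, so the numbers were not used as pairs. Promoters are from RefSeq (GRCm38.p6); protein sequences were not used here. Tables were made with Python 3.11.15 and pandas 2.3.3.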

Additional observations from a re-analysis of the deposited data

Results flagged for a closer look

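Within the groups of 4 arrays, 9 of 147 sets of values (6.12%) held an array far from the other 3, where chance gives about 1 in 20. Mt2 was high on control array 1 (6.88, other controls 5.84 to 6.01). The same array was high for Gpx5 (4.56, others 4.14 to 4.21) and Gsto2 (5.04, others 4.83 to 4.86). FSH/EGF array 4 was low for Prdx3 (7.58, others 8.39 to 8.46) and Prdx4 (7.64, others 8.09 to 8.17). GDF9 array 4 was high for Gpx8 (7.16, others 6.81 to 6.85) and low for Gstm1 (7.04, others 7.26 to 7.28). GDF9 array 2 was high for Gpx2 (5.66, others 4.88 to 4.98), and control array 2 was low for Gstt3 (5.27, others 5.45 to 5.47).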

How the results depend on the processing

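For FSH/EGF minus control, 15 of the 24 called members kept their call in all 23 other settings, and no called gene reversed. Lower members numbered 6 with equal array medians and 7 without control array 3. Of all genes, 1832 and 2327 were lower in these settings, against 2977 in the main fit. Leaving out 1 array at a time gave 12 to 13 higher and 7 to 12 lower members, and 8139 to 10801 rows past the threshold. The cystine and glutathione supply list ranged between 6 and 10 called genes, with 6 without control array 3, FSH/EGF array 1 or FSH/EGF array 3. In FSH/EGF minus GDF9 the same omissions gave 9 to 14 higher and 6 to 10 lower members; there were 9 higher without GDF9 array 3 or FSH/EGF array 3 and 6 lower without GDF9 array 3. GDF9 minus control gave 0 to 1 rows, the 1 row without GDF9 array 3, and no member. The cause was not tested. Of 1122 gene and setting pairs per comparison, 56 lost and 29 gained a call in FSH/EGF minus control (9 and 12 genes) and 68 lost and 11 gained one in FSH/EGF minus GDF9 (10 and 8 genes); uncalled differences changed sign in 31, 91 (GDF9 minus control) and 5. Equal array medians also ended the calls of Cat, Gsta3, Gstt1, Gstt2 and Prdx4 over control, renewed quantile normalization those of Gsta3, Gstt1 and Gstt2, the compared groups alone those of Cat, Gstt2 and Prdx4, and the variance trend those of Cat and Gstt2. Renewed quantile normalization brought Gstm5 and Gstp3 past the threshold, equal array medians Gstp3, and array weights Gstm7. With the replicate block, FSH/EGF minus control had 14 higher and 11 lower members (9600 rows; Gpx1 and Prdx1 gained and Cat lost), FSH/EGF minus GDF9 12 and 10 (7547 rows; Gclc lost, 0.31, adjusted p = 0.0542, and Gstp3 lost, 0.23, adjusted p = 0.0912) and GDF9 minus control 0. Of the members, 9 lay among the dimmest 40% of rows: Gpx5, Gpx6, Gstm6, Gsto2, Gstp3, Gstt1, Gstt4, Nqo1 and Sod3. Only 1 of these, Gstt1, was called in FSH/EGF minus control.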
